A study of Mus musculus with 8 samples.

Results

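The enzymes that build purine nucleotides from simple precursors were examined in mouse acute myeloid leukaemia (AML) cells exposed to AG636, an inhibitor of dihydroorotate dehydrogenase (DHODH). DHODH belongs to the pyrimidine pathway, so the purine enzymes lie in the sister pathway that the drug does not block directly. The members were chosen by symbol: Ppat, Gart, Pfas, Paics, Adsl, Atic, Impdh1, Impdh2, Gmps and Adss, which are 10 of the 54838 genes in the count table. All 10 were matched to a row and all 10 passed the filter on low counts.

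De novo purine synthesis starts from phosphoribosyl pyrophosphate (PRPP) and assembles the purine ring on it from glutamine, glycine, aspartate, carbon dioxide and formyl groups carried by folate. The first completed purine is inosine monophosphate (IMP), from which separate branches lead to AMP and GMP. Dividing blood cells and leukaemias draw on the pathway to make DNA and RNA, and MYC is a well-known activator of several of its genes.

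RNA was sequenced from 8 samples of AML cells carrying the fusion gene RUNX1-RUNX1T1 on a C57BL/6 background. The cells had been transplanted into congenic Ptprca recipient mice, which the labels describe as sub-lethally irradiated. The study's methods give irradiation before transplant for its other models and do not name this one. In the AG636 group (4 samples) the mice received the drug by oral gavage at 100 mg/kg, b.i.d., and in the Vehicle group (4 samples) they received vehicle. The study describes the model as an established tumour re-transplanted into recipients. Its results text gives the sorted cells as cKit-high, a gate meant to enrich leukaemia stem cells, and they were taken after 1 day of treatment. The study is not uniform on CD11b, a mature myeloid surface marker. A figure legend gives cKit-positive, CD11b-negative cells for this model, and the RNA sequencing methods give cKit-high, CD11b-low cells. Fluorescence-based sorting was from bone marrow and spleen, and the labels do not say which sample came from which tissue. The labels also do not say whether the samples of a group were separate mice, and the study's text gives fewer mice than samples in each group. The p-values therefore measure only the spread between these samples, which may be partly technical.

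Libraries were made with a QuantSeq 3′ kit, which reads the 3′ end of transcripts, so levels are given per transcript as CPM, which are counts divided by the TMM-scaled library size, without division by length. Total counts were 6120030 to 7162036 per sample, and no pair of replicates agreed within sampling noise. Vehicle 4 stood apart from the other Vehicle samples, with a chi-square per degree of freedom of 9.31 to 13.2 against them and of 3.9 to 4.59 among the other 3. The AG636 samples differed more among themselves, with values of 14.09 to 25.05 over all their pairs. Of the 10911 genes tested by limma-voom, 1523 passed an adjusted p of 0.05 (14.0%), 926 lower in AG636 (8.49%) and 597 higher (5.47%). With library size alone as the scaling, the share of lower genes among the calls was 38.3% in place of 60.8%. The progenitor markers Kit (152.6 to 252.1 CPM) and Myb (388.1 to 717.2 CPM) were high in all 8 samples, while Flt3 was at 0.152 to 0.798 CPM. Cd34, of the same list, was at 2.43 to 12.6 CPM in Vehicle and at 4.05 to 35.6 CPM in AG636. Of the mature myeloid markers, Itgam reached at most 0.615 CPM, whereas S100a8 reached 76.0 CPM and S100a9 70.7 CPM. Erythroid markers, globins among them, were also abundant, at summed levels of 2044 to 5482 CPM in Vehicle and 4237 to 5440 CPM in AG636.

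The members were ordered by their place in the pathway. Ppat transfers an amino group to PRPP in the committed step, Gart catalyses 3 of the next reactions on 1 polypeptide, Pfas adds a further nitrogen from glutamine, and Paics carries out a carboxylation and the joining of aspartate. Adsl then releases fumarate, and Atic adds the last formyl group and closes the ring to IMP. Beyond IMP, Impdh1 and Impdh2 are isozymes of the rate-limiting step to GMP, Gmps finishes GMP, Adss begins the branch to AMP, and Adsl acts again to finish AMP.

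In GRCm38 coordinates Ppat (ENSMUSG00000029246, chr5:76913249-76951578, minus strand) and Paics (ENSMUSG00000029247, chr5:76951307-76967509, plus strand) are neighbours that point away from each other, and their 5′ ends overlap by 272 bases. Gart (ENSMUSG00000022962) lies at chr16:91621186-91646952 on the minus strand and Pfas (ENSMUSG00000020899) at chr11:68985697-69008460 on the minus strand. Adsl (ENSMUSG00000022407) lies at chr15:80948490-80970946 and Atic (ENSMUSG00000026192) at chr1:71557150-71579631, both on the plus strand. Impdh1 (ENSMUSG00000003500) is at chr6:29200434-29216364 on the minus strand and Impdh2 (ENSMUSG00000062867) at chr9:108560286-108565584 on the plus strand. Gmps (ENSMUSG00000027823) is at chr3:63976106-64022579 on the plus strand and Adss (ENSMUSG00000015961) at chr1:177762962-177796511 on the minus strand.

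Since several members moved together, the promoter windows of RefSeq (GRCm38.p6, 250 bases before to 50 after each start site) were searched on both strands for 4 short motifs. Windows were found for 9 of the 10 members, with 2 windows for Impdh1. The E-box CACGTG, a palindrome bound by MYC with MAX, was present in 7.15% of all 32851 windows and in those of 3 members, Atic, Paics and Impdh2. The NRF1 core GCGCATGC was present in 2.71% of all windows and in that of Ppat. The YY1 core AAGATGGC (2.75% of all windows) and the ATF4 element TGATGNAA (3.97%) were in none of the members' windows. The stretches of 30 bases around the matches are shown because these members include 3 whose counts fell and 1 whose counts passed no test, with the motif in capitals:
Atic, chr1:71557137-71557166, plus strand: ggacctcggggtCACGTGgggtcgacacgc
Paics, chr5:76951087-76951116, plus strand: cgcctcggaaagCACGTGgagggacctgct
Impdh2, chr9:108560314-108560343, plus strand: gagctcgataagCACGTGgttacccagctc
Ppat, chr5:76951537-76951566, minus strand: caaaaagtggcGCGCATGCtgcaaggcccc
The E-box began 7 bases before the RefSeq start of Atic, 110 before that of Impdh2 and 203 before that of Paics. In GENCODE M21 the stretch of Impdh2 lies inside the annotated first exon and 5′ UTR of Impdh2 itself, and that of Atic runs into the first exon of Atic. The stretch beside Paics lies in an annotated first exon of Ppat, and the stretch of Ppat lies in first exons of both neighbours. A match describes the letters in a window and is not evidence of binding.

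In AG636-treated cells the transcripts of all 6 enzymes that lead from PRPP to IMP were lower than in Vehicle, to between 57.5% and 77.8% of the Vehicle level. None of the 4 enzymes that act only after IMP passed the test, at 87.7% to 98.4% of the Vehicle level. No member was higher. In 5 of the 10 the groups did not overlap, all with AG636 lower, where 22.2% of all genes tested did not overlap and 12.9% did so with AG636 lower. The members called lower were thus 6 of 10, where 8.49% of all genes tested were called lower. The log2 fold change (AG636 minus Vehicle) was below 0 in 10 of 10 members and in 50.6% of all genes tested. Its median was -0.67 over the 6 enzymes to IMP (range -0.80 to -0.36), -0.14 over the 4 after IMP (range -0.19 to -0.02) and -0.0056 over all genes tested. The difference between the enzymes before and after IMP was not itself tested. In bulk RNA, fewer cells of a type and less RNA per cell cannot be told apart.

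**Figure D1:**
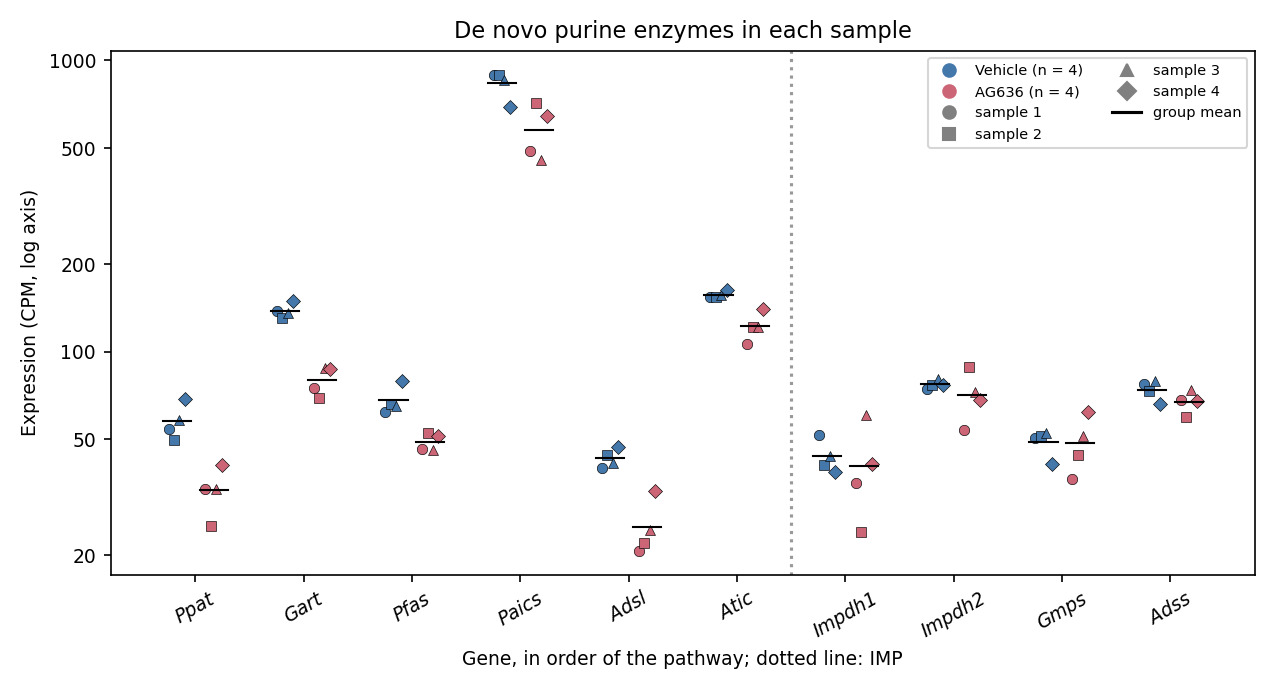
Expression of the 10 de novo purine enzymes in CPM (log axis) in each of the 4 Vehicle (blue) and 4 AG636 (red) samples, with marker shapes for sample numbers and bars for group means. Left of the dotted line, which marks IMP, the groups are separate for every enzyme except Paics, and right of it they overlap for all 4 enzymes.

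Ppat was measured at 54.2, 49.9, 58.3 and 68.8 CPM in Vehicle 1 to 4 and at 33.9, 25.2, 33.8 and 40.9 CPM in AG636 1 to 4. Every AG636 sample lay below every Vehicle sample. The mean fell from 57.8 ± 8.07 to 33.5 ± 6.42 CPM (SD, n = 4 each), with a log2 fold change of -0.79 (SE 0.15, limma-voom adjusted p = 0.00825). Ppat thus stood at 57.7% of Vehicle (95% interval 45.8% to 72.7%).

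Gart had levels of 138.4, 130.5, 135.9 and 149.1 CPM in Vehicle and of 74.8, 69.3, 88.2 and 87.0 CPM in AG636. The groups did not overlap, and the gap between them was wider than the range of either group. The log2 fold change of Gart was -0.80 (SE 0.10, adjusted p = 0.00178 by limma-voom), the smallest adjusted p among the members. The means of Gart were 138.5 ± 7.82 CPM in Vehicle and 79.8 ± 9.29 CPM in AG636. By the fitted fold change it stood at 57.5% of Vehicle (95% interval 49.5% to 66.7%).

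Pfas stood at 61.9, 66.2, 65.0 and 79.6 CPM in Vehicle and at 46.5, 52.5, 46.0 and 51.2 CPM in AG636. The groups did not overlap, and Vehicle 4 was the highest sample. The fall of Pfas was smaller than those of Ppat and Gart, with a log2 fold change of -0.47 (SE 0.10, limma-voom adjusted p = 0.0147) and 72.2% of the Vehicle level (95% interval 61.7% to 84.5%). Whether the sizes of these falls differ from each other was not tested.

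Adsl, the member with the lowest level, was at 39.9, 44.1, 41.5 and 47.2 CPM in Vehicle and at 20.7, 22.0, 24.4 and 33.2 CPM in AG636. All 4 AG636 samples were below all Vehicle samples, and AG636 4 was nearest to them. The means of Adsl were 43.2 ± 3.18 CPM in Vehicle and 25.1 ± 5.65 CPM in AG636. Its log2 fold change was -0.80 (SE 0.14, limma-voom adjusted p = 0.00671), or 57.6% of Vehicle (95% interval 46.2% to 71.8%). Its counts ranged from 133 to 310 per sample, and a pseudogene annotated within Adsl on the same strand held 75 counts over all 8 samples. Since Adsl acts both before IMP and in the last step to AMP, it belongs to either side of the pathway. Ppat, Gart, Pfas and Adsl were called lower under all 16 alternatives at the 0.05 threshold, the removal of each of the 8 samples included.

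Paics, whose product joins aspartate to the growing ring, was by far the most abundant member. It reached 894.1, 891.4, 857.9 and 694.1 CPM in Vehicle and 488.2, 711.9, 455.0 and 643.9 CPM in AG636. The groups overlapped, because Vehicle 4 lay below AG636 2. The means of Paics were 834.4 ± 95 CPM in Vehicle and 574.7 ± 123.1 CPM in AG636. Its log2 fold change was -0.56 (SE 0.15, limma-voom adjusted p = 0.0325), or 68.1% of Vehicle (95% interval 54.2% to 85.4%). The call was lost without Vehicle 1 (adjusted p = 0.0919), Vehicle 2 (0.0893), Vehicle 3 (0.0909), AG636 1 (0.0839) or AG636 3 (0.0513), while the log2 fold change stayed between -0.67 and -0.45 over all alternatives.

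Atic was at 154.0, 154.0, 157.1 and 162.6 CPM in Vehicle and at 106.5, 121.3, 121.9 and 140.4 CPM in AG636. The groups did not overlap, and the Vehicle samples were close together. Atic fell from 156.9 ± 4.07 to 122.5 ± 13.9 CPM, with a log2 fold change of -0.36 (SE 0.09, limma-voom adjusted p = 0.0257), the smallest fall among the 6 enzymes to IMP. The call on Atic did not hold with library size alone (adjusted p = 0.0705) or without Vehicle 1 (0.0638), Vehicle 2 (0.0605), Vehicle 3 (0.0731), Vehicle 4 (0.0719) or AG636 1 (0.0592).

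**Figure D2:**
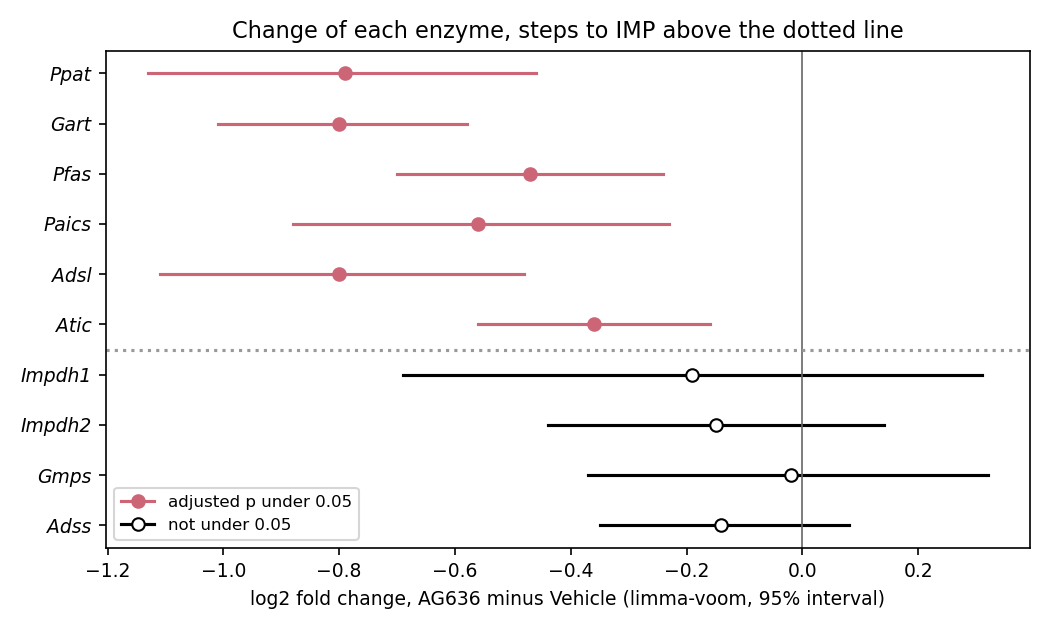
Log2 fold change (AG636 minus Vehicle) of each enzyme from limma-voom with its 95% interval, enzymes to IMP above the dotted line and enzymes after IMP below it, 4 samples per group. Filled points passed an adjusted p of 0.05. The 6 filled points run from -0.80 (Gart and Adsl) to -0.36 (Atic), and the intervals of the 4 open points cross 0.

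The isozymes of IMP dehydrogenase were described separately. Impdh1 was at 51.9, 41.0, 43.9 and 38.6 CPM in Vehicle and at 35.3, 24.1, 60.8 and 41.3 CPM in AG636, so that AG636 samples were both the lowest and the highest. Its SD on the log2 scale was 0.55 in AG636 and 0.18 in Vehicle. The log2 fold change of Impdh1 was -0.19 (SE 0.23, limma-voom adjusted p = 0.616), and it turned to 0.03 without AG636 2. The 95% interval, 62.1% to 123.9% of Vehicle, includes a fall of the size measured for Paics as well as a rise.

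Impdh2, the isozyme usually described as the one raised in dividing cells, was at 74.4, 77.0, 80.9 and 77.1 CPM in Vehicle and at 54.0, 88.4, 72.6 and 68.2 CPM in AG636. The Vehicle samples were close together and AG636 2 exceeded them all. The log2 fold change of Impdh2 was -0.15 (SE 0.13, limma-voom adjusted p = 0.478), with an interval of 73.8% to 110.1% of Vehicle. The 3′ end of Impdh2 overlaps Ndufaf3 on the other strand by 48 bases, and its pseudogene Impdh2-ps held at most 4 counts in a sample.

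The log2 ratio of Impdh2 to Impdh1 counts, which does not depend on library scaling, was 0.52, 0.91, 0.88 and 1.0 in Vehicle and 0.61, 1.87, 0.26 and 0.72 in AG636. The AG636 samples lay on both sides of the Vehicle range. The means of 0.83 ± 0.21 and 0.87 ± 0.70 (SD, n = 4 each) were not distinguished by an exact permutation test over the samples, run two-sided (p = 0.971, and 0.971 after adjustment for the 2 ratios), for which 0.0286 is the smallest p that 4 against 4 samples allow.

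Gmps, which turns XMP into GMP, was at 50.4, 51.5, 52.8 and 41.1 CPM in Vehicle and at 36.7, 44.2, 51.5 and 62.3 CPM in AG636. AG636 1 was the lowest and AG636 4 the highest of all 8 samples. The means of Gmps were 48.9 ± 5.33 and 48.7 ± 10.9 CPM, the log2 fold change was -0.02 (SE 0.16, limma-voom adjusted p = 0.936), and the interval ran from 77.5% to 124.9% of Vehicle. The value of Gmps was 0.04 with library size alone, 0.01 in DESeq2 and -0.01 with RLE factors, so it has no settled direction.

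Adss, which joins aspartate to IMP on the way to AMP, was at 77.5, 73.3, 79.5 and 66.2 CPM in Vehicle and at 68.1, 59.7, 73.9 and 67.8 CPM in AG636. The groups overlapped, although all 4 AG636 samples lay below the Vehicle mean. The log2 fold change of Adss was -0.14 (SE 0.10, limma-voom adjusted p = 0.367), with an interval of 78.3% to 105.4% of Vehicle. An antisense gene that overlaps Adss held 49 counts over all samples. Impdh1, Impdh2, Gmps and Adss were called under none of the 16 alternatives.

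Among the enzymes within the Vehicle group, Paics was the highest at a mean of 834.4 CPM, followed by Atic (156.9 CPM), Gart (138.5 CPM), Impdh2 (77.4 CPM) and Adss (74.1 CPM). Pfas (68.2 CPM), Ppat (57.8 CPM), Gmps (48.9 CPM), Impdh1 (43.9 CPM) and Adsl (43.2 CPM) completed the order. These are levels per transcript from 3′ reads, and the efficiency of 3′ capture can differ between genes. The samples of Paics, Atic and Gart were each apart from those of the next gene, whereas from Impdh2 downwards every neighbour in the order overlapped the next. In AG636 the order was Paics, Atic, Gart, Impdh2, Adss, Pfas, Gmps, Impdh1, Ppat and Adsl. Ppat, the enzyme of the committed step, stood above Gmps and Impdh1 in Vehicle and below both in AG636, in each case with overlapping samples.

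Summed over the 10 members, expression was 1596.7, 1579.0, 1572.8 and 1424.3 CPM in Vehicle and 964.7, 1218.7, 1028.1 and 1236.3 CPM in AG636. The sums did not overlap between the groups. They amounted to 0.141% to 0.154% of all counts in Vehicle and 0.0994% to 0.129% in AG636. Paics made up 54.1% of the Vehicle sum. Leaving it out, the other 5 enzymes to IMP summed to 464.5 ± 29.0 CPM in Vehicle and 310.0 ± 31.6 CPM in AG636, again without overlap and at 66.7% of Vehicle. The 4 enzymes after IMP summed to 244.3 ± 15.5 and 227.3 ± 28.1 CPM (93.0%), with overlapping groups. No test was made on the sums.

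The samples of a group did not deviate alike for all members. Vehicle 4 was the highest Vehicle sample for Ppat, Gart, Pfas, Adsl and Atic and the lowest for Paics, Impdh1, Gmps and Adss. AG636 4 was the highest of its group for Ppat, Adsl, Atic and Gmps. The median SD on the log2 CPM scale over the 10 members was 0.137 in Vehicle and 0.289 in AG636, and over all genes tested it was 0.156 and 0.229. Without Vehicle 4, the log2 fold changes of the called members were -0.69 for Ppat, -0.75 for Gart, -0.38 for Pfas, -0.63 for Paics, -0.74 for Adsl and -0.33 for Atic, and all but that of Atic kept an adjusted p under 0.05.

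Ppat and Paics share their promoter region, and their log2 count ratio (Paics over Ppat) was compared between the groups. The ratio was 4.04, 4.16, 3.88 and 3.33 in Vehicle and 3.84, 4.81, 3.75 and 3.97 in AG636. AG636 2 was the highest and Vehicle 4 the lowest, and the other 6 samples lay between 3.75 and 4.16. The difference of 0.24 between the means of 3.85 ± 0.36 and 4.09 ± 0.49 (SD, n = 4 each) did not pass the same exact permutation test (p = 0.543, and 0.971 after adjustment). The overlap of 272 bases is at the 5′ ends, away from the 3′ ends that the libraries read.

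**Figure D3:**
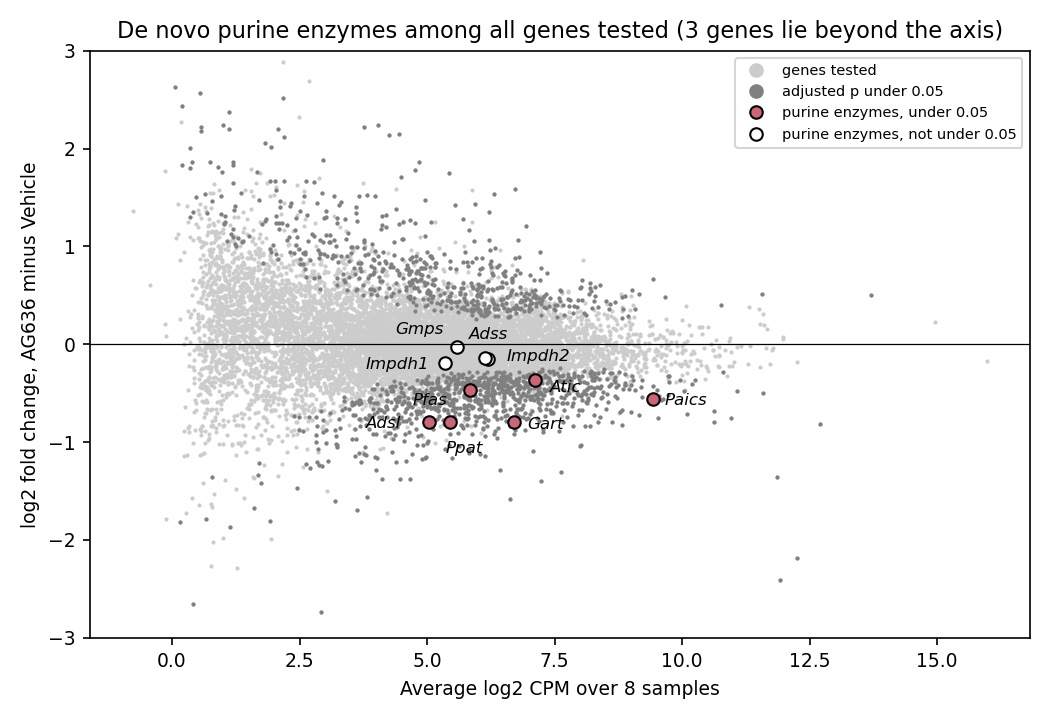
Log2 fold change (AG636 minus Vehicle) against average log2 CPM for the 10911 genes tested, dark grey where the adjusted p is under 0.05, with the 10 purine enzymes named (red under 0.05, white not); 3 genes lie beyond the axis. The 6 red points lie at or below -0.36, and Paics lies at the high end of expression.

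The genes around the pathway were described from 9 lists, which hold 78 genes, 70 of them tested. Over these lists 20 genes were called lower and 2 higher. The counts are to be read against 8.49% lower and 5.47% higher among all genes tested, and no list was tested as a set.

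PRPP, the starting material, is made from ribose 5-phosphate of the pentose phosphate pathway. Of 11 genes, 2 were called lower and none higher, and the median log2 fold change was -0.19. Both called genes belong to the oxidative arm of that pathway. G6pdx, of the same arm, did not pass (log2 fold change 0.1, limma-voom adjusted p = 0.617). Pgd was at 86.7, 86.7, 90.2 and 94.3 CPM in Vehicle and 52.3, 44.7, 67.3 and 78.5 CPM in AG636 (log2 fold change -0.59, limma-voom adjusted p = 0.0276). Pgls fell less, from 134.3 ± 4.63 to 104.3 ± 14.1 CPM (log2 fold change -0.37, adjusted p = 0.0319). Without overlap, all AG636 samples of both genes were below Vehicle. Both calls were lost when any 1 Vehicle sample was left out or AG636 1, and that of Pgls also without AG636 4. With library size alone as the scaling both were lost as well (limma-voom adjusted p = 0.0566 for Pgd and 0.0527 for Pgls). Over the alternatives the adjusted p reached 0.0751 for Pgd and 0.0907 for Pgls. The PRPP synthetases Prps1 (log2 fold change -0.01, adjusted p = 0.922) and Prps2 (-0.27, adjusted p = 0.0954) did not pass, and neither did Taldo1, the highest gene of the list that was not called (0.04, adjusted p = 0.819).

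Formyl groups for the reactions of Gart and Atic come from the folate cycle. Of 10 genes, 8 were tested, 4 were called lower and none higher, with a median log2 fold change of -0.47. Shmt1, the cytosolic serine hydroxymethyltransferase, was at 39.6, 35.7, 46.4 and 42.1 CPM in Vehicle and at 13.7, 8.14, 20.3 and 25.6 CPM in AG636. The groups were separate, and its log2 fold change of -1.38 (SE 0.26, limma-voom adjusted p = 0.00825) was the lowest among the 70 genes of these lists and held under all 16 alternatives. Its mitochondrial counterpart Shmt2 fell from 151.4 ± 23.1 to 104.7 ± 16.5 CPM (-0.53, adjusted p = 0.0262). Mthfd1, which makes 10-formyl-tetrahydrofolate in the cytosol, changed from 322.0 ± 31.6 to 232.1 ± 51.6 CPM (-0.49, adjusted p = 0.0456). The call on Mthfd1 held with 1 of the 8 samples left out, AG636 4, and that on Shmt2 was lost without Vehicle 3, Vehicle 4, AG636 1 or AG636 2. The call on Mthfd1 was also lost in the quasi-likelihood test of edgeR (adjusted p = 0.0511). In limma-voom it was lost with RLE factors (0.0543) and with library size alone (0.0913). Shmt2 was not called with library size alone (0.0601). Over the alternatives the adjusted p reached 0.126 for Mthfd1 and 0.069 for Shmt2. Mthfd1l, the highest gene not called, had a log2 fold change of -0.23 (adjusted p = 0.187).

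Salvage enzymes return free bases and nucleosides to the nucleotide pool. Of 10 genes, 2 were called lower and none higher, with a median log2 fold change of -0.26. Aprt, which salvages adenine, was at 267.2, 265.6, 284.1 and 248.3 CPM in Vehicle and at 144.8, 108.9, 215.9 and 162.2 CPM in AG636 (log2 fold change -0.79, SE 0.17, limma-voom adjusted p = 0.0123). Mtap, which releases adenine from methylthioadenosine, fell from 146.5 ± 7.06 to 94.7 ± 18.2 CPM (-0.65, adjusted p = 0.00898). Neither gene's groups overlapped, and both calls held under all 16 alternatives. Hprt, which salvages hypoxanthine and guanine, had a log2 fold change of -0.30 (adjusted p = 0.0887), and the adenosine kinase gene Adk, the highest gene not called, of 0.23 (adjusted p = 0.213).

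The genes that interconvert AMP and GMP through IMP gave no call in either direction among the 5 of 6 tested, with a median log2 fold change of 0.06. Gmpr, a GMP reductase, was at 282.3, 272.2, 289.7 and 236.0 CPM in Vehicle and at 258.8, 287.2, 297.0 and 317.3 CPM in AG636, with overlapping groups (0.10, adjusted p = 0.498 by limma-voom). The muscle-type paralog of Adss, Adssl1, was near the detection limit at 0.913 to 5.74 CPM and did not pass the test (0.93, adjusted p = 0.155).

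Among the kinases that raise purine monophosphates and diphosphates to the next level, 2 of 6 tested genes were called lower and 1 higher. Nme1, a nucleoside diphosphate kinase, was at 251.2, 243.6, 248.1 and 293.8 CPM in Vehicle and 159.2, 125.5, 172.2 and 200.3 CPM in AG636, without overlap (log2 fold change -0.67, SE 0.13, limma-voom adjusted p = 0.00946). The close paralog Nme2 was at 0.155 CPM or less and was not tested. How reads shared by near-identical or overlapping genes were counted was not given, so its own level is uncertain. The adenylate kinase gene Ak1 rose from 2.31 ± 0.662 to 5.64 ± 1.28 CPM (1.28, adjusted p = 0.0191) at counts as low as 10, a call lost without Vehicle 2 or Vehicle 4 (adjusted p of up to 0.0652). Ak3, the highest gene not called, had a log2 fold change of -0.16 (adjusted p = 0.282).

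In the list of purine breakdown and nucleotide clearance, 1 of 5 tested genes was called lower and none higher. Itpa, which removes inosine triphosphate, fell from 85.0 ± 5.51 to 66.2 ± 6.9 CPM (log2 fold change -0.36, limma-voom adjusted p = 0.0349). The call was lost without Vehicle 1, 3 or 4 or AG636 1 or 2 (adjusted p of up to 0.103). With library size alone (adjusted p = 0.1) and with no filter (0.0669) it was lost as well. Xdh, which makes uric acid, reached at most 0.456 CPM and was not tested. Samhd1, the highest gene not called, had a log2 fold change of 0.21 (adjusted p = 0.209).

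The pyrimidine pathway, in which the drug acts, gave 3 lower calls and none higher among 5 genes, with a median log2 fold change of -0.60. Cad, which carries out the first reactions, was at 94.4, 95.6, 87.6 and 101.3 CPM in Vehicle and at 47.9, 59.9, 65.7 and 79.6 CPM in AG636 (log2 fold change -0.60, limma-voom adjusted p = 0.0166). Umps and Ctps, which act after DHODH, had log2 fold changes of -0.69 (adjusted p = 0.00411) and -0.65 (adjusted p = 0.00393). These falls were of the same size range as those of the 6 purine enzymes to IMP, and all 3 calls held under all 16 alternatives. Dhodh itself was at 31.9, 31.8, 29.6 and 38.8 CPM in Vehicle and at 29.2, 30.5, 26.8 and 32.5 CPM in AG636, with overlapping groups (-0.14, SE 0.12, adjusted p = 0.442).

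**Figure D4:**
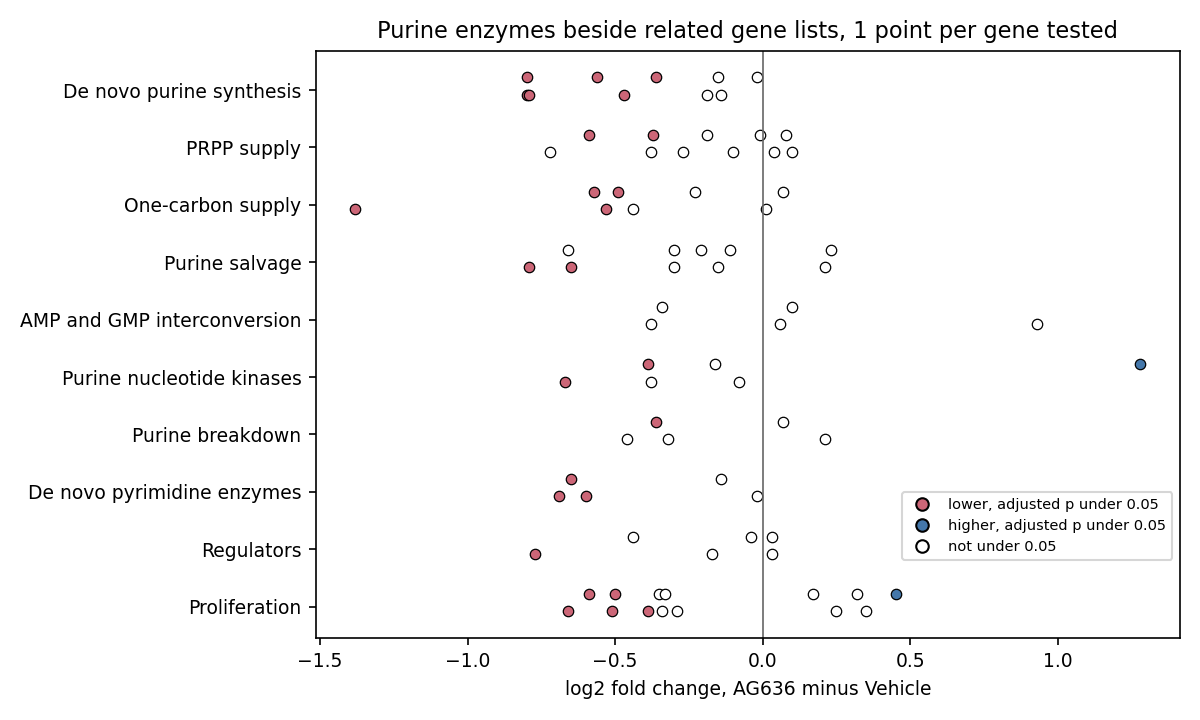
Log2 fold change (AG636 minus Vehicle, limma-voom, 4 samples per group) of each tested gene in the purine enzymes and in 9 related lists, 1 point per gene, red for lower and blue for higher at an adjusted p of 0.05. Of the red points outside the purine enzymes, Shmt1 in one-carbon supply lies lowest at -1.38, and the blue points are Ak1 at 1.28 and Ccnb1 at 0.45.

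Of 6 genes for regulators named for this pathway, 1 was called lower. Myc was at 119.5, 80.7, 108.3 and 82.0 CPM in Vehicle and at 61.4, 60.7, 46.1 and 58.1 CPM in AG636, so every AG636 sample was below every Vehicle sample. Its log2 fold change was -0.77 (SE 0.15, limma-voom adjusted p = 0.00867) and its call held under all 16 alternatives. The partner gene Max (-0.17, adjusted p = 0.223) and Atf4 (-0.44, adjusted p = 0.0716) did not pass, nor did Yy1 (-0.04, adjusted p = 0.773), Nrf1 (0.03, adjusted p = 0.872) and Mtor (0.03, adjusted p = 0.909). The study states that Myc transcripts were unaffected by AG636, without naming the model there, and reports less MYC protein in cultured AML cells. It also reports less YY1 protein, without a fall of the YY1 transcript in human AML lines. Protein was not measured here. The part of Myc in the levels of the purine enzymes was not tested.

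Proliferation genes moved in both directions, with 5 of 14 called lower and 1 higher. The lower calls were of genes for DNA replication: Mcm5 (-0.66, limma-voom adjusted p = 0.00469), Mcm3 (-0.51, adjusted p = 0.00694), Mcm4 (-0.50, adjusted p = 0.00565), Mcm2 (-0.39, adjusted p = 0.0352) and the thymidylate synthase gene Tyms (-0.59, adjusted p = 0.016). Ccnb1, a cyclin of mitosis, was higher, at 193.3 ± 30.8 CPM in Vehicle and 263.8 ± 31.0 CPM in AG636 (0.45, adjusted p = 0.0322). The call on Mcm2 held with AG636 4 left out and with none of the other 7 samples left out, and that on Ccnb1 was lost without Vehicle 1, 2 or 3 or AG636 1 or 2. Over the 16 alternatives the call on Mcm2 held in 8 and that on Ccnb1 in 11, and the adjusted p reached 0.0976 for Mcm2 and 0.106 for Ccnb1. Top2a, the highest gene not called, was at 1225.9 ± 156.8 and 1376.2 ± 95.8 CPM (0.17, adjusted p = 0.28). The part of a shift in cell-cycle state in the levels of the purine enzymes was not tested.

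Markers of other cell types were compared beside these results, since a sorted gate can hold other cells. Mature myeloid markers (8 genes, 5 tested, none called) summed to 43.8 to 103.3 CPM in Vehicle and 14.8 to 203.5 CPM in AG636. AG636 2 and AG636 4, with 162.5 and 203.5 CPM, were the highest, and AG636 1 and AG636 3, with 14.8 and 20.7 CPM, the lowest of all 8 samples. Paics was also higher in AG636 2 and AG636 4 (711.9 and 643.9 CPM) than in AG636 1 and AG636 3 (488.2 and 455.0 CPM). Pfas split in the same way, at 52.5 and 51.2 CPM against 46.5 and 46.0 CPM. The other members did not, and AG636 2 was the lowest of its group for Ppat, Gart, Impdh1 and Adss. The part of mature myeloid cells in the levels of the purine enzymes was not tested. B cell markers (6 genes, 5 tested) summed to 5.38 to 13.4 CPM in Vehicle and 10.7 to 22.5 CPM in AG636, and 1, Cd79a, was called higher (log2 fold change 1.83, limma-voom adjusted p = 0.0266). At counts as low as 2, the call on Cd79a held under 12 of 16 alternatives and was lost without Vehicle 1, 2 or 3 (adjusted p of up to 0.0921). Monocyte markers summed to at most 7.81 CPM and T and NK cell markers to at most 19.8 CPM in any sample. No marker of these lists was at 0 in every sample. Erythroid markers (6 tested, none called) were lowest in Vehicle 4, at 2044 CPM, and the part of the erythroid signal in the levels of the purine enzymes was not tested. The progenitor markers summed to 556.4 to 692.2 CPM in Vehicle and 622.1 to 937 CPM in AG636, with none of the 3 tested called.

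**Figure D5:**
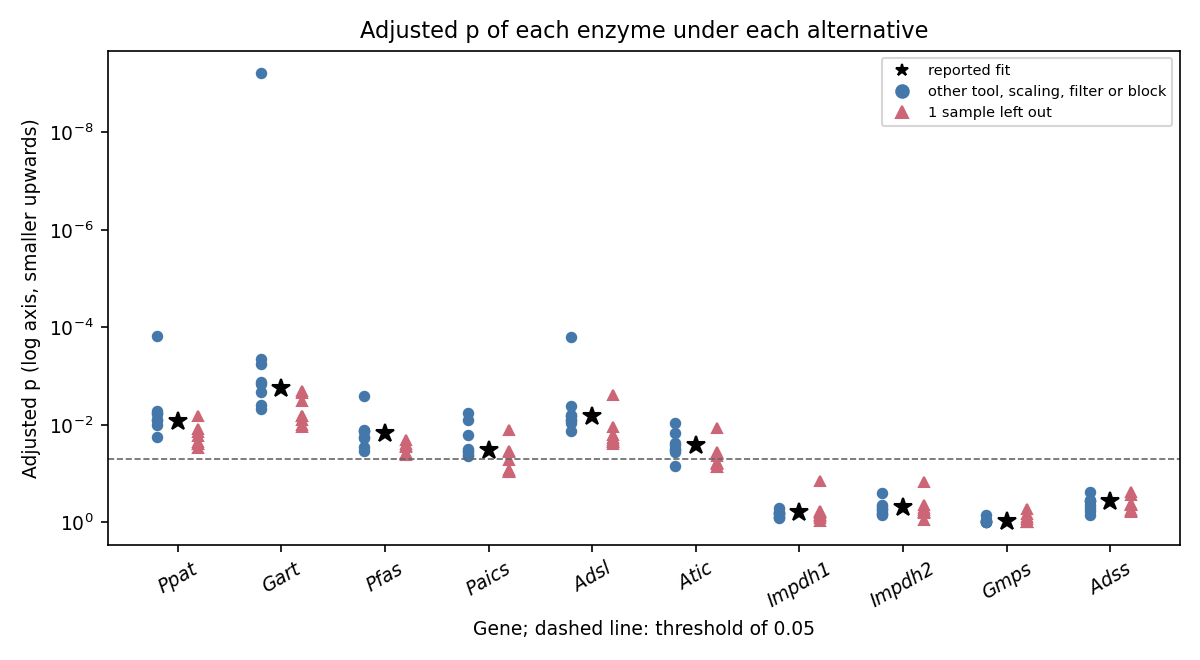
Adjusted p (log axis, smaller upwards) of each purine enzyme in the reported limma-voom fit (star), with another tool, scaling, filter or block (blue) and with 1 of the 8 samples left out (red), and the 0.05 threshold as a dashed line. Ppat, Gart, Pfas and Adsl lie above the line throughout, Paics and Atic on both sides of it, and the 4 enzymes after IMP below it.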

How the data were processed

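Gene counts deposited by the authors were used. To make them, the authors removed low-quality reads, trimmed primer and poly-A sequence, mapped to mouse mm10 and counted per gene. The submitters' processing notes name cutadapt 1.9.1, HISAT2 2.0.4 and featureCounts of Subread 1.5.0-p3. Use of strand and treatment of multi-mapped reads were not given in the sources used here, so overlapping genes, antisense genes and near-identical copies are uncertain. Columns were matched to samples by title. Symbols came from a name table (54723 of 54838 IDs, all 10 members included), and 54037 of these IDs had the same start and end in GENCODE M21.

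Genes were kept by filterByExpr (minimum count 10) and scaled by TMM. The comparison of AG636 and Vehicle used voom weights in limma 3.58.1 with edgeR 4.0.16 under R 4.3.3 (limma-voom), since the methods of the study name limma, and 1 fit of 8 samples with group as the term. Tests were two-sided with Benjamini-Hochberg adjustment over all genes tested and a threshold of 0.05. CPM values, counts relative to the TMM-scaled library size, are given as mean ± SD, and 95% intervals came from the fit. The 2 count ratios (0.5 added to each count) used exact permutation tests over 70 relabellings. The fit was tested on simulated data, in which 100 genes changed by 0.5 (log2) and 97 by 1 among 10794 tested. There it recovered 12% of changes of 0.5 and 69.1% of changes of 1, with 2.47% false among the calls. In the real data 1523 genes were called, so the adjustment was stricter in the simulation. The shares recovered may therefore be lower than in these data. A gene that did not pass can still have changed, within its 95% interval. The interval of Impdh1 (-0.69 to 0.31, log2) includes a fall of 0.5. Those of Impdh2 (-0.44 to 0.14), Gmps (-0.37 to 0.32) and Adss (-0.35 to 0.08) do not, but include smaller falls. Alternatives were DESeq2 1.42.0, the quasi-likelihood test of edgeR, sample weights, limma-trend, RLE factors, library size alone, no filter, a replicate block, a threshold of 0.01, a pseudocount of 2 for the ratios, and each sample left out.

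The members, lists and motifs were chosen with earlier results of these data known. Named genes were all members, Dhodh, and per list up to 4 called genes with the smallest p and the most abundant gene not called. Others, namely Prps1, Prps2, G6pdx, Hprt, Adssl1, Nme2, Xdh, Atf4, Yy1, Nrf1, Mtor, Mcm2, Ccnb1 and single cell type markers, were named after their values were seen. The values of 2 called genes of the related lists are not reported here, though the lists' counts include them.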

Additional observations from a re-analysis of the deposited data

Results flagged for a closer look

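The log2 CPM of Paics in Vehicle 4 was 9.44, while the other 3 Vehicle samples lay between 9.75 and 9.80. This gap took up a share of 0.837 of the range of the group, more than Dixon's ratio allows at 95% for 4 samples. It was 1 of 24 sample groups examined in this way, of which about 1.2 would pass by chance.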

How the results depend on the processing

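Of the members' log2 fold changes under the alternatives, 143 kept their direction and their side of the threshold, 11 lost the call and 6 changed sign. The lost calls were all of Paics or Atic. The sign changed for Impdh1 without AG636 2 (0.03; lowest -0.41, without AG636 3) and for Gmps in DESeq2 (0.01), with library size alone (0.04), without Vehicle 3 (0.01), without AG636 1 (0.1) and without AG636 2 (0.01). Among the named genes of the related lists, 44 values lost the call and 419 kept it or stayed uncalled, and Taldo1 turned to -0.01 without AG636 2 (up to 0.09 with another sample left out).

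At an adjusted p of 0.01, 435 genes in all were called, 3 members were lower and 9 related genes were called, fewer by construction. With 1 sample left out, the genes called ranged from 688 (without Vehicle 3) to 1706 (without AG636 3), and were 798, 918 and 1010 without Vehicle 1, 2 and 4. The members called lower ranged from 4 to 6, and the related genes called from 13 (without Vehicle 3) to 27. The difference in log2 ratio ranged from -0.30 to 0.24 for Impdh2 to Impdh1 and from 0.00 to 0.36 for Paics to Ppat. Lower genes were 60.8% of the calls, 51.4% in DESeq2 and 38.3% with library size alone, which moved the median of all genes by 0.0697 (log2).

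Samples with the same number in both groups had correlations of their deviations of -0.14, 0.014, 0.203 and 0.135, and not every sample correlated best with its own number, so the numbers were not taken as a pairing. With the replicate block, 1446 genes were called, 6 members were lower and 25 related genes were called. The lowest count of a member in a sample was 133 (Adsl in AG636 1).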
